A study of Mus musculus with 15 samples.

Results

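The genes described here are 32 genes of the synaptic vesicle and of the machinery that releases its contents. They were chosen as a list of gene symbols, and all 32 were present among the 15932 genes of the deposited table. The study measured RNA in single cells of the mouse striatum, in droplets, by counting unique molecular identifiers (UMIs), each of which stands for 1 captured RNA molecule. The groups were haloperidol, delivered by implanted pellets (5 mice), olanzapine, delivered in food (5 mice), and placebo (5 mice, with the form of delivery not given in the labels used here). All were male mice of the inbred strain C57BL/6J, each a separate library, bought at 8 weeks of age and habituated for about 1 week before 28 to 29 days of treatment. The labels name no transgene or deletion. Haloperidol and olanzapine are antipsychotic drugs that block dopamine receptors, and the series asks how long exposure to them changes gene expression in striatal cells.

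Neurotransmitter is packed into synaptic vesicles, which dock and are primed at the active zone and fuse with the plasma membrane when calcium enters the nerve terminal. SNARE proteins drive the fusion, synaptotagmins sense calcium, complexins clamp and then assist the SNARE proteins, and endocytosis brings the membrane back. Striatal projection neurons and interneurons both release transmitter in this way, while some members, such as synaptotagmin 11, also take part in membrane traffic in other cells.

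Promoter sequences are shown for 4 members, chosen by the levels described below and, for Unc13a, a priming factor, by a paired motif. Syp, a vesicle membrane protein, was nearly restricted to neurons. Syn1, a synapsin that tethers vesicles, was shared with neuroblasts and the class labelled oligodendrocyte, and Syt11 was shared with glia. By symbol, 26 of the 32 members were matched to RefSeq promoter windows on build GRCm38.p6, which run from 250 bases before to 50 bases after the start of a gene. Snap25, Vamp2, Syt4, Syt5, Doc2b and Rims2 were not matched. The windows are Syn1 (chrX:20920869-20921168, minus strand), Unc13a (chr8:71671708-71672007, minus strand), Syp (chrX:7638330-7638629, plus strand) and Syt11 (chr3:88772550-88772849, minus strand). Each is printed along the strand of its gene. In Syn1 the capitals mark CAGCACC, the left part of the RE1 element bound by the repressor REST, and the cyclic AMP response element TGACGTCA. In Unc13a they mark CAGCACC and the right part of RE1, GGACAG, on either strand. In Syp and Syt11 they mark GC boxes, GGGCGG.
Syn1: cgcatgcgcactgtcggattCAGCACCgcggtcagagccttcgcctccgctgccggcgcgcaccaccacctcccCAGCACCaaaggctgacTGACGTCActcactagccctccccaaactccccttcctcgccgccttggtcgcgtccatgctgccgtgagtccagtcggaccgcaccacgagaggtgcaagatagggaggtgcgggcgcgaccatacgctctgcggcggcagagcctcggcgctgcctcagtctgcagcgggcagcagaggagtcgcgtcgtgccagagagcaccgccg
Unc13a: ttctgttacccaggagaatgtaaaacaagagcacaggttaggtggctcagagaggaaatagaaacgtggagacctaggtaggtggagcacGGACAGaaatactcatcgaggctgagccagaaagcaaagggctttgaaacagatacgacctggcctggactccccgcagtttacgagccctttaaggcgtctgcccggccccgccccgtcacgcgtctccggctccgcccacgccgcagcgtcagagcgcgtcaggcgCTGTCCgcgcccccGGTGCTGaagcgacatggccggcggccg
Syp: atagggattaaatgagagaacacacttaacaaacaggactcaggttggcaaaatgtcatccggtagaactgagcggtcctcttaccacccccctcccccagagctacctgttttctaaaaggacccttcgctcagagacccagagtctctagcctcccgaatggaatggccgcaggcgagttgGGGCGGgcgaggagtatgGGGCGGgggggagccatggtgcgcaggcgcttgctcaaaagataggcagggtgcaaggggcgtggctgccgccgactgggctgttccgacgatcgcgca
Syt11: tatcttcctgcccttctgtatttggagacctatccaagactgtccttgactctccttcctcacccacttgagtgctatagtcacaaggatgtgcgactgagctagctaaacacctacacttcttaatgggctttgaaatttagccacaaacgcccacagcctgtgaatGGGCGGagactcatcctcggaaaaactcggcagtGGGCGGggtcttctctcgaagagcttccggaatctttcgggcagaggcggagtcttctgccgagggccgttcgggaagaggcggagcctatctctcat

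Each motif was searched on both strands, so that a match on the other strand is printed as its reverse complement. The GC box was found in 21 of the 26 members (80.8%), against 38.2% of all 27025 genes with a window, noncoding genes included. Syp and Syt11 held 2 each. CAGCACC was found in Rph3a, Sv2c, Syn1 and Unc13a (15.4% of members, against 8.14% of genes), and GGACAG in 5 members (19.2%, against 24.7% of genes). Both parts of RE1 within 12 bases on 1 strand were found in Unc13a and in no other member, against 0.126% of genes. TGACGTCA was found in Syn1 (3.85% of members, against 2.03% of genes), and TATAAA in Rab3b and Sv2b (7.69% of members, against 15.7% of genes). The paired RE1 is made of CAGCACC and GGACAG, so Unc13a counts for all 3, and no other motif here contains another. A match describes the letters of a window only.

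The analysed data held 5265 cells and 17881766 UMIs, with 70 to 1172 cells and 215990 to 4235427 UMIs in a mouse. In 3 mice the cells outnumbered the 500 that the labels give as loaded. Neurons numbered 909, or 15 to 160 cells and 62660 to 727625 UMIs in a mouse. Cell classes are those the authors deposited, and marker genes were checked in CPM, the UMI count of a gene scaled to 1000000 UMIs. Drd1, a dopamine receptor of projection neurons, averaged 174 CPM in neurons and 0 CPM in neuroblasts, and Dcx, a gene of immature neurons, averaged 26.3 CPM in neurons and 432 CPM in neuroblasts. The classes of the oligodendrocyte lineage went against their names. Pdgfra, a precursor gene, averaged 702 CPM in the class labelled oligodendrocyte and 0.630 CPM in the class labelled olig precursor, where the myelin gene Mog averaged 2721 CPM. The class other carried the endothelial gene Cldn5 (3546 CPM).

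Placebo mouse 5 shared cell barcodes with other placebo mice. It shared 110 with placebo mouse 3, of which 109 carried the same class, and 101 with placebo mouse 2, all of the same class, while the other 103 pairs of mice shared at most 2. Its copies held a median of 0.308 and 0.328 of the UMIs of their counterparts in placebo mice 3 and 2. These 211 cells, 41.1% of its 514 deposited cells and 49 of its 84 neurons, were taken out of placebo mouse 5 for the values below, a choice made after the data had been seen. With them kept, 0 members were called in each drug comparison, as without them. Over all genes and classes, 10 genes were called for olanzapine against placebo with the copies kept and 0 without them.

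Vesicle release genes were a neuronal group. Together they took 0.865% ± 0.0741 (SD, n = 15) of the UMIs of neurons, 0.130% ± 0.0170 (SD, n = 14) in neuroblasts and 0.0217% ± 0.00695 (SD, n = 13) in microglia. The summed share was 0.173% ± 0.0302 (SD, n = 9) in the class labelled olig precursor and 0.166% ± 0.0147 (SD, n = 11) in the class labelled oligodendrocyte. It was 0.0762% ± 0.00968 (SD, n = 15) in astrocytes and 0.0427% ± 0.00898 (SD, n = 12) in the class other. The lowest neuron share in a mouse, 0.708%, was above the highest share in a mouse of any other class, 0.216%. By their mean over mice, 30 of the 32 members were highest in neurons among the 7 classes, and Syt11 and Vamp1 were not.

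**Figure D1:**
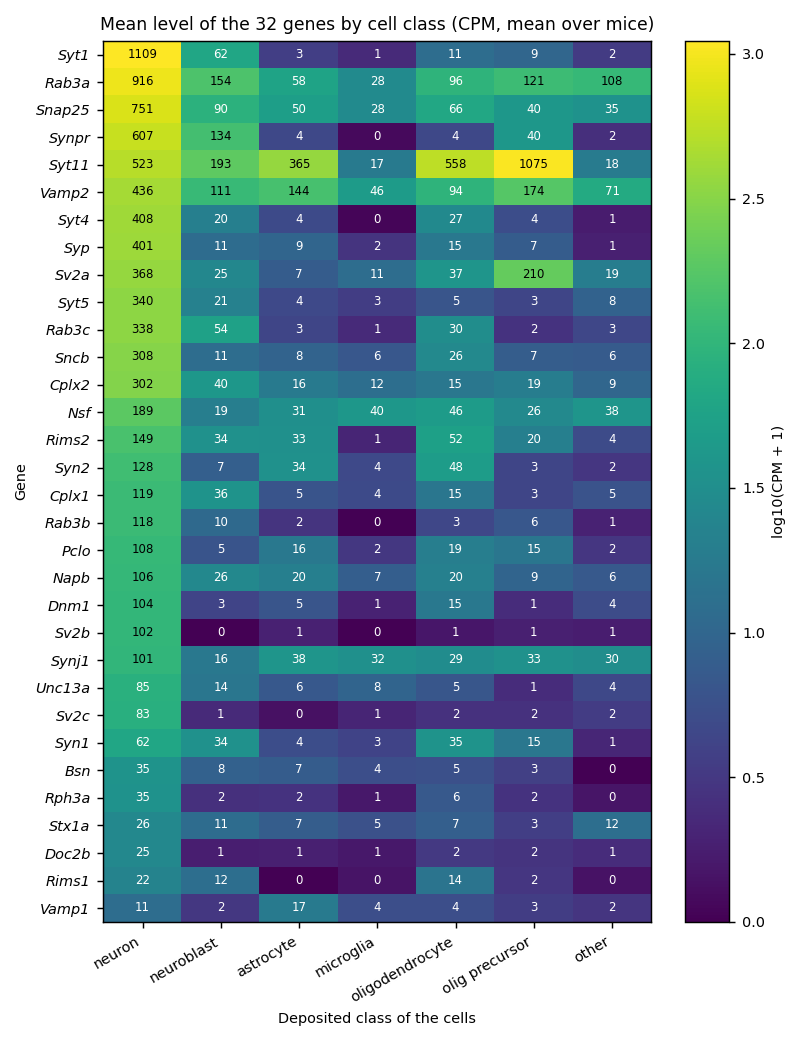
Mean level of each of the 32 genes (rows) in each deposited cell class (columns), in CPM averaged over mice, with colour on a log scale. Most genes are at their highest in neurons, and Syt11 reaches 1075 CPM in the class labelled olig precursor, above its 523 CPM in neurons.

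Levels by class are CPM on 1 normalization over all classes. A 3' UMI counts a molecule whatever the length of its transcript, so members can be set side by side on this scale, although capture may differ between genes. The most abundant member in neurons was Syt1, the calcium sensor of fast release, whose lowest, median and highest mouse had 787, 1111 and 1546 CPM. Rab3a, a small GTPase on vesicles, had 403, 940.3 and 1300.5 CPM on the same measures, and Snap25, a SNARE protein of the plasma membrane, had 459, 785 and 1099.9 CPM. These 3 ranges overlapped, and within a mouse Syt1 had more UMIs than Rab3a in 10 of 15 mice and Rab3a more than Snap25 in 10 of 15, so the order of neighbours was not the same in each mouse. Synpr, a vesicle membrane protein related to synaptophysin, had 206, 711 and 853 CPM, and Syt11, a synaptotagmin that does not bind calcium, had 386, 503 and 738 CPM. In all, 23 members averaged at least 100 CPM in neurons, 13 of them above 300 CPM, and 6 averaged under 40 CPM.

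SNARE genes spanned much of this range. Vamp2, the main vesicle SNARE, averaged 436 ± 215 CPM (SD, n = 15), while Stx1a, its partner on the plasma membrane, averaged 25.5 ± 11.5 CPM (SD, n = 15) and Vamp1, a paralogue of Vamp2, 11.2 ± 5.89 CPM (SD, n = 15). Nsf and Napb, which take spent SNARE complexes apart, averaged 189 and 106 CPM. The complexins Cplx2 and Cplx1 averaged 302 and 119 CPM. Among the other synaptotagmins, Syt4 averaged 408 CPM and Syt5 339.8 CPM. Rph3a, a Rab3 effector, averaged 34.9 CPM and Doc2b, a calcium sensor of spontaneous release, 25.2 CPM.

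Genes of vesicle proteins and of active zone proteins each spanned several-fold in level. On the vesicle, Syp averaged 401 ± 141 CPM (SD, n = 15), Sv2a, a glycoprotein and the target of levetiracetam, 368 ± 97.2 CPM (SD, n = 15), and its paralogues Sv2b and Sv2c 102 and 82.8 CPM. Rab3c and Rab3b, relatives of Rab3a, averaged 338 and 118 CPM. Sncb, or beta-synuclein, averaged 308 CPM, and the synapsins Syn2 and Syn1 128 and 62.1 CPM. At the active zone, Rims2, a scaffold that links vesicles to calcium channels, averaged 149 CPM and its paralogue Rims1 21.9 CPM. The large scaffolds Pclo and Bsn averaged 108 and 35.2 CPM, and Unc13a averaged 85.1 CPM. The endocytic genes Dnm1, which cuts vesicles from the membrane, and Synj1, a lipid phosphatase that lets them shed their coat, averaged 104 and 101 CPM.

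Most members were far higher in neurons than in neuroblasts, the immature neuronal class. That class also carried markers of cycling progenitors. Their 7 genes summed to 47.2 to 2326 CPM in a mouse, with medians of 1497 CPM in haloperidol, 1933 CPM in olanzapine and 984 CPM in placebo mice. Among the 31 members with a mean of at least 10 CPM over both classes (Vamp1 was below it), 28 were at least 2-fold higher in neurons, as were 26.7% of the 9196 genes at that level. Of the 31, 24 were higher in neurons in each of 14 mice, against 19.4% of genes. The median log2 ratio of neurons to neuroblasts over the members averaged 2.42 ± 0.32 (SD, n = 14 mice), and 0.23 over all genes. The classes were defined from expression, so these differences are descriptions with no test.

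**Figure D2:**
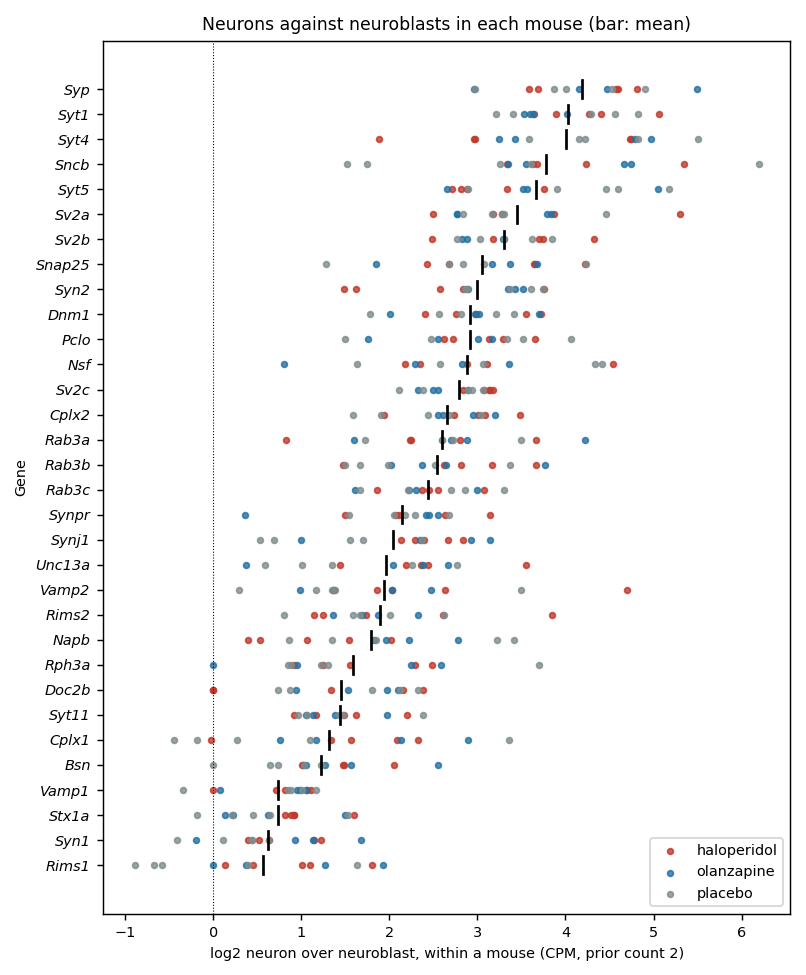
Log2 ratio of the level in neurons to that in neuroblasts for each of the 32 genes, with 1 point for each of 14 mice, coloured by drug. Syp, with a mean of 4.19, lies at one end, and Rims1, with a mean of 0.57, at the other, with mice on both sides of 0.

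With a prior count of 2, which lowers the ratio of genes with few UMIs, Syp had the highest log2 ratio of neurons to neuroblasts, at 4.19 ± 0.72 (SD, n = 14 mice), followed by Syt1 at 4.02 ± 0.56 and Syt4, a synaptotagmin of dense-core vesicles, at 4.00 ± 1.01. All 3 were higher in neurons in 14 of 14 mice. As a percent of the neuron level, Sv2b, with 0 UMIs in neuroblasts, and Sv2c (1.58%) stood below Syp (2.72%) there. At the other end, Rims1 averaged 0.57 ± 0.92 and was higher in neurons in 10 of 14 mice, on 20 UMIs in neuroblasts. Syn1 averaged 0.62 ± 0.57 and was higher in 12, and Stx1a averaged 0.73 ± 0.55 and was higher in 13, on 23 UMIs. The 2 synapsins can be set side by side: in neuroblasts Syn1 stood at 54.8% of its neuron level and Syn2 at 5.78%.

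Several members were also present in glia. Syt11 averaged 523 ± 104 CPM (SD, n = 15) in neurons and 1075 ± 287 CPM (SD, n = 9) in the class labelled olig precursor, where it was higher than in neurons in 9 of 9 mice. It averaged 558 ± 88.7 CPM (SD, n = 11) in the class labelled oligodendrocyte and 365 ± 42.7 CPM (SD, n = 15) in astrocytes, but 17.1 ± 12.3 CPM (SD, n = 13) in microglia. Syt11 was thus spread over neurons and macroglia. Sv2a averaged 368 ± 97.2 CPM (SD, n = 15) in neurons and 210.3 ± 36.4 CPM (SD, n = 9) in the class labelled olig precursor, 57.1% of its neuron level, with neurons higher in 9 of 9 mice. In astrocytes Sv2a stood at 1.84% of its neuron level. Vamp1 averaged 11.2 CPM in neurons on 41 UMIs and 16.99 CPM in astrocytes on 57 UMIs, and was higher in neurons in 3 of 15 mice. It was also the member highest relative to neurons in microglia, at 39.6% on 8 UMIs, and Stx1a was that member in the class other, at 46.0% on 19 UMIs.

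RNA released from broken neurons can give neuronal UMIs to any droplet. As a scale for it, 23 markers of projection neurons stood at a median of 1.75% of their neuron level in the class labelled olig precursor, 2.58% in astrocytes and 0.530% in microglia, although some of them are expressed outside neurons. The medians over the 32 members were 6.34%, 5.35% and 2.61% in the same classes. In the class labelled oligodendrocyte the medians were 4.03% for the markers and 11.5% for the members. In the class other the order was reversed, with 3.82% for the markers and 2.79% for the members, and the level of Stx1a there rests on 19 UMIs. Syt11 and Sv2a in the class labelled olig precursor stood far above these values, while members at a few percent of their neuron level, such as Sncb at 2.73% and Syp at 2.18% in astrocytes, lay close to them.

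Neurons were next divided into kinds by clustering without the members and without 82 other vesicle cycle genes. Markers named 112 interneuron-like cells, 82 projection-neuron-like cells of no named pathway, 262 direct-pathway-like cells (with the markers of projection neurons that carry Drd1) and 192 indirect-pathway-like cells (with those of neurons that carry Drd2). The other neurons stayed unnamed but are part of the neuron class in the drug comparisons. Their largest cluster held 137 cells, 59 of them from 1 mouse. Another, of 74 cells, was at least 2-fold enriched for the cortical gene Slc17a7 and for 5 of 7 microglia markers. Kind levels are CPM of pooled UMIs, with exact Poisson 95% intervals that cover counting error only. Because the grouping shifted with the random seed, a difference is given only where it was at least 2-fold in each of 10 clusterings, in which the interneuron-like group held 112 to 139 cells and the projection-neuron-like group 79 to 109.

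**Figure D3:**
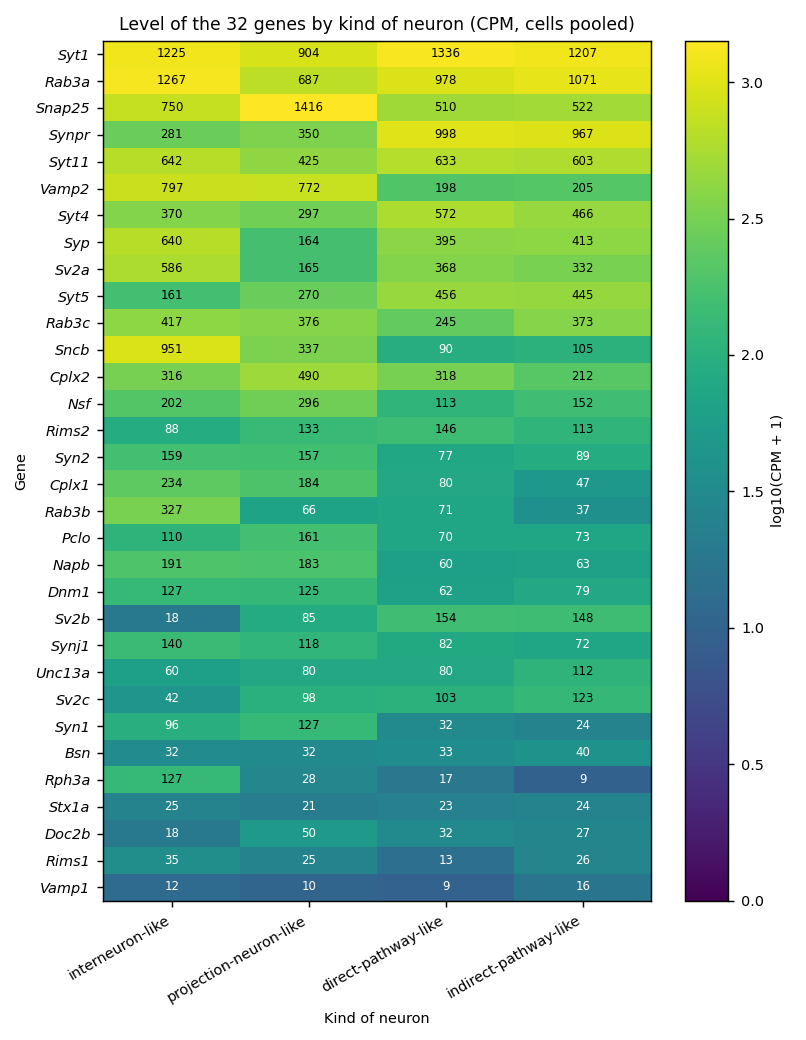
Pooled level of each of the 32 genes (rows) in 4 kinds of neuron (columns), in CPM, with colour on a log scale. Sncb reaches 951 CPM in interneuron-like cells, and Synpr reaches 998 CPM in direct-pathway-like cells.

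Interneuron-like cells had a different release gene profile from the pathway kinds. They were at least 2-fold above both for Cplx1, Napb, Rab3b, Rph3a, Sncb, Syn1 and Vamp2, and at least 2-fold below both for Sv2b, Sv2c and Synpr. Rph3a had 127 CPM (102 to 157) in interneuron-like cells, 17.4 CPM (9.96 to 28.3) in direct-pathway-like and 8.61 CPM (3.16 to 18.7) in indirect-pathway-like cells. Sncb had 951 CPM (879.7 to 1027) in interneuron-like cells, 90.4 CPM (72.0 to 112) in direct-pathway-like and 105 CPM (82.1 to 132) in indirect-pathway-like cells. Rab3b had 327 CPM (286 to 373), 70.8 CPM (54.6 to 90.2) and 37.3 CPM (24.4 to 54.7) in the same order. Sv2b and Synpr ran the other way, while Sv2a, with 586 CPM (530.1 to 646) in interneuron-like, 368 CPM (329.9 to 409.6) in direct-pathway-like and 332 CPM (290.1 to 377) in indirect-pathway-like cells, did not. Sv2b had 17.5 CPM (9.06 to 30.6) in interneuron-like cells, 154 CPM (129 to 181) in direct-pathway-like and 148 CPM (121 to 179) in indirect-pathway-like cells, and Synpr had 281 CPM (242 to 323), 998 CPM (934 to 1064) and 967 CPM (896 to 1043). In each of the 5 genes other than Sv2a the interval of the interneuron-like cells lay apart from those of both pathway kinds, which overlapped each other, for Rab3b only just.

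The projection-neuron-like cells stood at least 2-fold above both pathway kinds for Cplx1, Napb, Pclo, Snap25, Sncb, Syn1 and Vamp2, and at least 2-fold below both for Synpr and Syp. Cplx1, Napb, Sncb, Syn1 and Vamp2 were thus higher than in the pathway kinds in interneuron-like and projection-neuron-like cells alike. Snap25 had 1416 CPM (1331 to 1505) in projection-neuron-like cells, 509.8 CPM (465 to 558) in direct-pathway-like and 522 CPM (470.1 to 579) in indirect-pathway-like cells. Syn1 had 127 CPM (102 to 155), 31.6 CPM (21.2 to 45.4) and 24.4 CPM (14.2 to 39.1) in the same order. Syp had 164 CPM (136 to 196), 395 CPM (356 to 438) and 413 CPM (367 to 464). Cells of this cluster held a median of 9522.5 UMIs, against 2352.5 to 3951.5 in the direct- and indirect-pathway-like clusters. The interneuron-like clusters, pooled here, carried Chat, Pvalb or Sst, and their cells held medians of 1368 to 13156.5 UMIs. The part of depth in the levels of either kind was not tested. With 10 or more such cells in only 3 mice, and 10 or more interneuron-like cells in only 4, the spread of these levels over mice is poorly known.

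No member changed past the threshold with either drug. UMIs were summed within each mouse and class and tested with edgeR's quasi-likelihood test, with Benjamini-Hochberg adjustment over all genes tested in a class. The filter on low counts passed 26 members in neurons, 6 in neuroblasts, 4 in astrocytes, 5 in the class labelled oligodendrocyte, 5 in the class labelled olig precursor, 2 in the class other and 0 in microglia. Bsn, Doc2b, Rims1, Rph3a, Stx1a and Vamp1 were too low to test in neurons. Of the 26 members tested in neurons, 0 were called for haloperidol against placebo (0% of 3948 genes were), 0 for olanzapine against placebo (0%) and 0 for haloperidol against olanzapine (0%). At an unadjusted p under 0.05 there was 1 of 26 in each comparison, against 2.38%, 3.19% and 1.09% of all genes in the same order. DESeq2 called 0 members too, with 2, 1 and 1 of 26 in neurons at an unadjusted p under 0.05, against 1.9%, 2.56% and 0.811% of genes. Both drugs were compared with the same placebo mice, so their comparisons are not independent.

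The members' summed share of neuronal UMIs was 0.887% ± 0.0650 in haloperidol mice, 0.848% ± 0.102 in olanzapine mice and 0.860% ± 0.0605 in placebo mice (SD, n = 5 each), and the groups overlapped. For haloperidol against placebo the median log2 fold change in neurons was 0.24 and 19 of 26 members were above 0, against 49.5% of genes. For olanzapine against placebo the median was 0.05 and 18 of 26 were above 0, against 49.7% of genes. For haloperidol against olanzapine the median was 0.06 and 15 of 26 were above 0, against 50.4% of genes. The groups overlapped for 26 of 26 members in each comparison, and failed to overlap for 0.76%, 0.507% and 0.329% of genes in the same order. The median standard error of a member's log2 fold change against placebo, derived from the F statistic, was 0.31 for each drug, which limits the size of change that could be seen. Single mice mattered: without haloperidol mouse 5 or without placebo mouse 5 the median for haloperidol against placebo was 0.107. Without placebo mouse 4, 7 of 26 members in neurons had an unadjusted p under 0.05 for haloperidol against placebo (against 3.81% of genes) and 6 of 26 for olanzapine against placebo (against 5.42%), where 1 each had it with that mouse, and 0 were called. Syn1, Rab3b, Cplx1, Sncb and Synj1 were among them for both drugs. The median mitochondrial share over all cells of a mouse, a sign of RNA quality, was 3.15% ± 0.786 in haloperidol mice, 2.96% ± 0.469 in olanzapine mice and 2.53% ± 0.361 in placebo mice (SD, n = 5 each), and its part in these values was not tested.

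**Figure D4:**
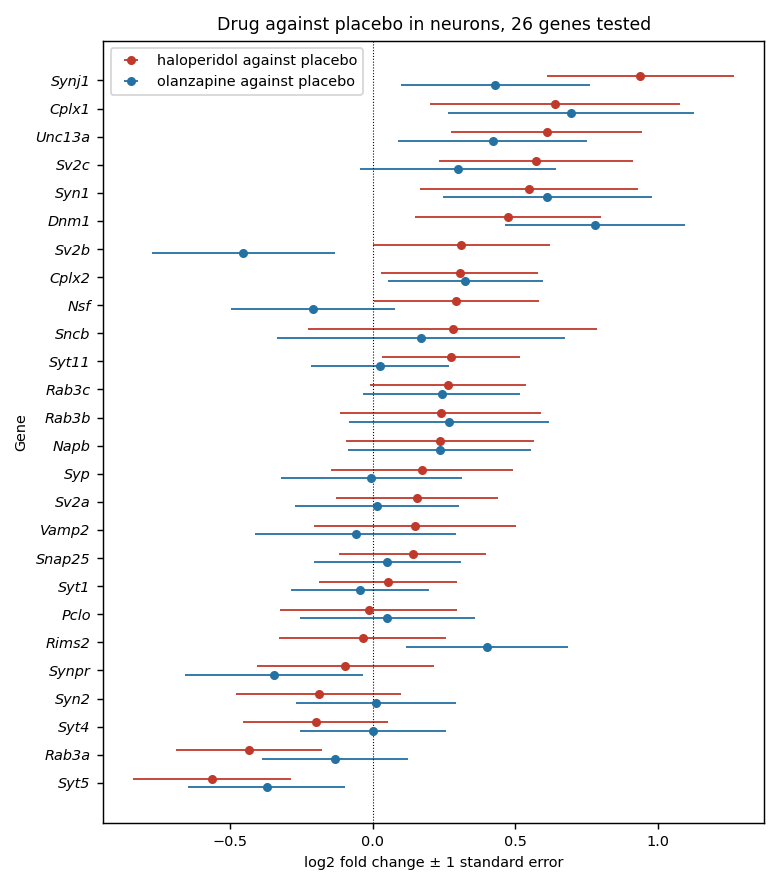
Log2 fold change against placebo in neurons, with its standard error, for the 26 genes tested, for haloperidol and olanzapine. Estimates run from -0.56 (Syt5) to 0.94 (Synj1) for haloperidol, and 0 of 26 genes pass the adjusted threshold for either drug.

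Values by mouse in the drug comparisons are CPM normalized within a class. Synj1 had the smallest p of the members for haloperidol and Dnm1 for olanzapine. Synj1 (chromosome 16, 90936092 to 91011308, minus strand, mm10) had 176, 249, 106, 137 and 208 CPM in haloperidol mice, 136, 117, 71.3, 126 and 130.1 CPM in olanzapine mice and 47.9, 115, 59.1, 137 and 45.9 CPM in placebo mice. Haloperidol mice were mostly higher than placebo mice, of which 2 lay within their range. The log2 fold change for haloperidol against placebo was 0.94 ± 0.33 (SE), with an edgeR p of 0.00726 before and 0.995 after adjustment, on 5 to 25 UMIs in a placebo mouse. Dnm1 (chromosome 2, 32308471 to 32353338, minus strand) had 292, 117, 131, 146 and 135 CPM in olanzapine mice and 58.5, 63.7, 142, 109.6 and 82.7 CPM in placebo mice. Olanzapine mouse 1, which had the fewest cells of any mouse, was the highest, and 1 placebo mouse lay within the olanzapine range. The log2 fold change for olanzapine against placebo was 0.78 ± 0.31 (SE), with an edgeR p of 0.0185 before and 0.998 after adjustment. Dnm1 overlaps Ciz1 on the other strand.

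For haloperidol, the estimates of Syt5 and Rab3a lay below 0. Syt5 had 451, 205, 424, 382 and 174 CPM in haloperidol mice and 596, 458, 555, 307 and 588 CPM in placebo mice, a log2 fold change of -0.56 ± 0.28 (SE) with an edgeR adjusted p of 0.995. The groups overlapped through placebo mouse 4. Rab3a had 979, 834, 1088, 1108 and 544 CPM in haloperidol mice and 1469, 1375, 1004, 1194 and 1148 CPM in placebo mice, a log2 fold change of -0.43 ± 0.26 (SE) with an edgeR adjusted p of 0.995. Haloperidol mouse 5 was the lowest, and 2 haloperidol mice lay within the placebo range. The estimate of Unc13a lay above 0, and it had 196, 58.5, 106, 87.7 and 162 CPM in haloperidol mice and 42.6, 82.8, 129.97, 76.7 and 73.5 CPM in placebo mice, with a log2 fold change of 0.61 ± 0.33 (SE). The values of 4 of 5 placebo mice lay within the haloperidol range.

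For olanzapine, 3 members followed Dnm1 in the order of p. Syn1 had 77.8, 29.3, 89.1, 146 and 60.4 CPM in olanzapine mice and 37.3, 50.9, 47.3, 109.6 and 27.6 CPM in placebo mice, and the lowest olanzapine mouse lay below 4 of 5 placebo mice. Cplx1 had 389, 58.6, 92.1, 171 and 179.7 CPM in olanzapine mice and 74.5, 70.0, 59.1, 236 and 36.7 CPM in placebo mice, and here too placebo mouse 4 was the highest placebo mouse and above 4 of 5 olanzapine mice. The log2 fold changes were 0.61 ± 0.37 (SE) for Syn1 and 0.70 ± 0.43 (SE) for Cplx1. Rims2 had 292, 205, 306, 114 and 186 CPM in olanzapine mice and 154, 210.1, 106, 159 and 165 CPM in placebo mice, with a log2 fold change of 0.40 ± 0.28 (SE). For these 3 genes the groups overlapped, and the edgeR adjusted p for olanzapine against placebo was 0.998 in each.

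Between the drugs, Sv2b and Nsf had the smallest p. Sv2b (chromosome 7, 75114894 to 75309262, minus strand) had 274, 132, 133, 151 and 69.4 CPM in haloperidol mice and 58.4, 132, 77.2, 77.1 and 102 CPM in olanzapine mice, with a log2 fold change of 0.76 ± 0.31 (SE) for haloperidol against olanzapine and an edgeR adjusted p of 1.00. Haloperidol mouse 5 was below 4 of 5 olanzapine mice. Nsf had 215, 366, 176, 347 and 301 CPM in haloperidol mice and 117, 73.3, 282, 189 and 220.01 CPM in olanzapine mice, with a log2 fold change of 0.50 ± 0.29 (SE). Olanzapine mice 1 and 2 were the lowest, on 6 and 5 UMIs, and the groups overlapped.

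**Figure D5:**
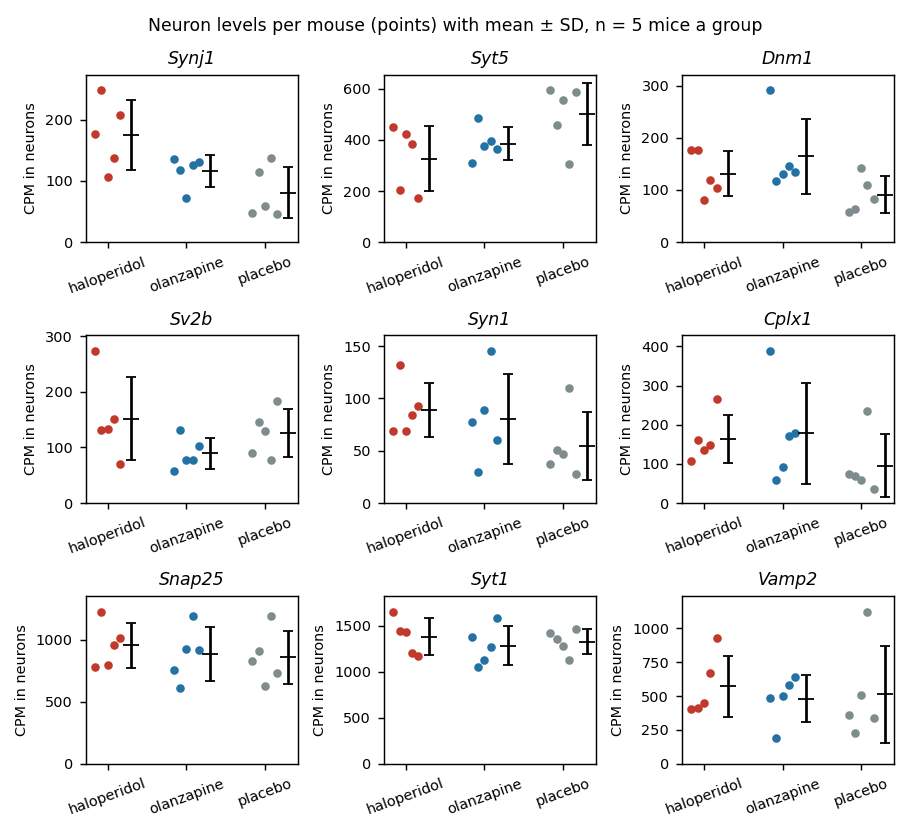
Level in neurons, in CPM, of 9 genes in each mouse (points), with the mean and SD, for haloperidol, olanzapine and placebo (n = 5 mice each). The groups overlap in all 9 panels, and for Synj1, Syn1, Cplx1 and Vamp2 the highest placebo point is placebo mouse 4.

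The kinds of neuron sampled differed between mice. Interneuron-like cells were 15.4% ± 9.57 of neurons in haloperidol mice, 13.8% ± 11.5 in olanzapine mice and 7.80% ± 7.29 in placebo mice (SD, n = 5 each). The summed level of 18 interneuron markers in neurons ran from 299 to 16605 CPM with haloperidol, from 21.9 to 12246 CPM with olanzapine and from 115 to 22326 CPM with placebo, with medians of 9534, 7111 and 504 CPM. Of 8 such markers tested, 6 were above 0 for each drug against placebo, with median log2 fold changes of 0.79 for haloperidol and 0.43 for olanzapine, and 0 were called. Of 10 projection neuron markers 9 were above 0 for each drug, with medians of 0.19 and 0.18. Markers of the 2 pathways leaned the other way. Of 5 direct-pathway markers 2 were above 0 for haloperidol and 1 for olanzapine, with medians of -0.14 and -0.23. Of 4 indirect-pathway markers 1 was above 0 for each drug, with medians of -0.25 and -0.15. Of 9 pan-neuronal markers 7 were above 0 for haloperidol and 8 for olanzapine, and 0 were called in any of these lists. Placebo mouse 4 had the largest interneuron-like share among placebo mice, 20.5% of its neurons. It also had the highest placebo values of Sncb, Vamp2, Cplx1, Syn1, Napb and Rab3b. These genes were at least 2-fold above both pathway kinds in interneuron-like cells, and all but Rab3b were so in projection-neuron-like cells too. Synj1 was also highest in this placebo mouse, but was 2-fold above both pathway kinds in 0 of 10 clusterings for either kind. Projection-neuron-like cells of no named pathway were 2.56% of the neurons of placebo mouse 4, against 6.06% to 11.8% in the other placebo mice. The part of neuron makeup in the drug comparisons was not tested in the whole class. In projection-neuron-like cells of all 3 kinds together, 0 of 23 members were called for haloperidol against placebo (0% of 2381 genes), for olanzapine against placebo (0%) or between the drugs (0%).

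Within those projection neurons the members with an unadjusted p under 0.05 were Sncb and Vamp2 for haloperidol (2 of 23, against 2.77% of genes). For olanzapine they were Sncb, Vamp2, Cplx2 and Snap25 (4 of 23, against 8.53%), and between the drugs there were 0 (against 2.23%). Sncb had a log2 fold change of 0.64 ± 0.29 (SE) for haloperidol and 0.81 ± 0.28 (SE) for olanzapine against placebo, and Vamp2 had 0.68 ± 0.32 (SE) and 0.71 ± 0.31 (SE). The median log2 fold changes were 0.20 and 0.10, with 14 and 13 of 23 members above 0, against 50.4% and 51.6% of genes. Between the drugs 11 of 23 were above 0, against 47.3% of genes. The groups held 4 haloperidol, 4 olanzapine and 5 placebo mice. Cells of no named pathway, in which Sncb, Vamp2 and Snap25 were at least 2-fold above both pathway kinds, made up 8.77% to 25% of these projection neurons in haloperidol mice, 0% to 47.1% in olanzapine mice and 4.55% to 18.2% in placebo mice, with medians of 15.8%, 19.5% and 9.52%, and the part of this makeup was not tested.

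When all cells of a mouse were summed, the estimates of the members lay on 1 side for each drug. For haloperidol against placebo 30 of 30 members tested were above 0, with a median log2 fold change of 0.56, where 50% of genes were above 0. For olanzapine against placebo 30 of 30 were above 0, with a median of 0.51, against 53.2% of genes. Between the drugs 17 of 30 were above 0, with a median of 0.03, against 51%. Of the 30, 12, 7 and 0 had an unadjusted p under 0.05 in edgeR in that order, against 6.31%, 7.29% and 3.35% of genes, and 0 were called (0% of genes in each). Neurons were 19.6% ± 6.67 of cells in haloperidol mice, 21.7% ± 7.03 in olanzapine mice and 13.8% ± 3.77 in placebo mice (SD, n = 5 each). They held 25.5% ± 6.19, 27.0% ± 10.4 and 16.3% ± 5.16 of the UMIs of a mouse in the same order (SD, n = 5 each). The sum alone cannot tell more neuronal UMIs from a higher level of the members within neurons, and within the neuron class the median was 0.24 and 0.05.

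In neuroblasts, 0 of 6 members were called by edgeR in each comparison, as were 0% of 2253 genes, and 0 had an unadjusted p under 0.05, against 3.15%, 2.09% and 2.53% of genes for haloperidol against placebo, olanzapine against placebo and haloperidol against olanzapine. The groups overlapped for all 6, and failed to for 0.666%, 1.33% and 1.02% of genes. The 7 markers of cycling progenitors were all above 0 in neuroblasts for each drug against placebo. Their median log2 fold changes were 0.45 for haloperidol and 0.44 for olanzapine, and 0 were called. The part of this makeup in the values of neuroblasts was not tested. Syt11 had 413, 423, 245, 348 and 163 CPM in haloperidol mice, 310.03, 203, 329 and 217 CPM in 4 olanzapine mice and 229.9, 297, 129, 245 and 316 CPM in placebo mice. Its log2 fold change was 0.29 ± 0.25 (SE) for haloperidol against placebo and 0.30 ± 0.26 (SE) for haloperidol against olanzapine. Syt1 had 114, 141, 42.2, 64.1 and 44.4 CPM in haloperidol mice, 88.6, 76.4, 84.6 and 169.9 CPM in the 4 olanzapine mice and 51.1, 142, 36.9, 136 and 66.1 CPM in placebo mice, on 2 to 50 UMIs in a mouse. Its highest value was in olanzapine mouse 5, and its log2 fold change for olanzapine against placebo was 0.31 ± 0.41 (SE).

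The other 4 members tested in neuroblasts lay close to 0 relative to their errors. Rab3a had 228, 70.4, 194, 284 and 326 CPM in haloperidol mice, 66.4, 249, 188 and 198 CPM in 4 olanzapine mice and 247, 241, 351, 231 and 95.4 CPM in placebo mice, with a log2 fold change of 0.09 ± 0.31 (SE) for haloperidol and -0.13 ± 0.30 (SE) for olanzapine against placebo. Vamp2 had 171, 0, 135, 219.7 and 148 CPM in haloperidol mice and 141, 227, 222, 109 and 154 CPM in placebo mice, with a log2 fold change of -0.09 ± 0.32 (SE), and haloperidol mouse 2 held no UMI of it. Both genes overlapped between groups. Snap25 had 199, 73.4, 103 and 123 CPM in 4 olanzapine mice and 34.1, 142, 295, 218 and 80.7 CPM in placebo mice, with a log2 fold change of -0.27 ± 0.51 (SE). Synpr had 199, 189.6, 207 and 142 CPM in 4 olanzapine mice and 196, 169.997, 222, 218 and 161 CPM in placebo mice, with a log2 fold change of -0.05 ± 0.26 (SE).

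Whether a drug acted differently in neurons than in neuroblasts was tested as an interaction over 14 mice. The fit held 26 members, and the comparison is given first for the 6 that passed the filter in both classes. The other members of the fit did not pass it in neuroblasts, where they had from 0 (Sv2b) to 146 (Rab3c) UMIs. Of the 6, 0 were called by edgeR for haloperidol (0% of 1775 such genes were) and 0 for olanzapine (0%). At an unadjusted p under 0.05 there were 0 of the 6 for each drug, against 1.35% and 2.31% of such genes. Among the 6 the difference, neurons minus neuroblasts, was widest for Vamp2 with haloperidol, at 0.57 ± 0.46 (SE), and for Syt1 with olanzapine, at -0.52 ± 0.41 (SE). Outside the 6, Syn2, Syt4 and Syt5 had an unadjusted edgeR p under 0.05 for haloperidol, and no other member did for either drug. Their differences were -2.11 ± 0.90 (SE), -1.41 ± 0.68 (SE) and -1.33 ± 0.66 (SE), on 19, 54 and 65 UMIs in neuroblasts. No member of the whole fit was called. In simulated data this test missed most of the changes put in, so the classes are not shown to respond alike.

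In glia and the class other, edgeR called 0 members, and 0 had an unadjusted p under 0.05. Among all genes, 0.033% were called in the class other for haloperidol against placebo and 0% in each other test of these classes. At an unadjusted p under 0.05 the share of genes in astrocytes was 3.74% for haloperidol against placebo, 2.5% for olanzapine against placebo and 2.95% between the drugs. In the same order it was 3.29%, 2.41% and 4.34% in the class labelled oligodendrocyte and 4.29%, 7.29% and 3.96% in the class other. In the class labelled olig precursor only olanzapine against placebo could be tested (2.99%). The smallest unadjusted p of a member in a glial class was for Snap25 in astrocytes, with a log2 fold change of 0.86 ± 0.42 (SE) for haloperidol against olanzapine. Groups overlapped in every member and comparison there except for Rab3a in the class labelled olig precursor. In the order above, the share of genes whose groups did not overlap was 0.637%, 0.637% and 0.738% in astrocytes, 2.38%, 4.5% and 4.56% in the class labelled oligodendrocyte, and 2.08%, 6.33% and 4.59% in the class other. In the class labelled olig precursor, Rab3a had 64.3, 142, 139 and 61.8 CPM in 4 olanzapine mice and 148, 203 and 149 CPM in 3 placebo mice, so olanzapine mice were lower, on 3 to 26 UMIs in a mouse. In that class 4.52% of genes did not overlap, 1.72% with olanzapine lower, and the log2 fold change of Rab3a was -0.56 ± 0.39 (SE) with an edgeR adjusted p of 0.999.

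Of 82 other vesicle cycle genes in the table, 49 were tested in neurons and 0 were called by edgeR in each comparison, with 4 at an unadjusted p under 0.05 for haloperidol against placebo (8.16%, against 2.38% of all genes), 1 for olanzapine against placebo (2.04%, against 3.19%) and 2 between the drugs (4.08%, against 1.09%). Sypl, a relative of synaptophysin, had 118, 87.8, 72.7, 91.2 and 69.4 CPM in haloperidol mice and 26.6, 38.2, 70.9, 43.8 and 73.5 CPM in placebo mice, with a log2 fold change of 0.86 ± 0.35 (SE) and 2 placebo mice within the haloperidol range. Pacsin1, an adaptor that binds dynamin, had 234, 132, 300.05, 197 and 132 CPM in olanzapine mice and 192, 140.1, 47.3, 181 and 119 CPM in placebo mice, with a log2 fold change of 0.49 ± 0.30 (SE) and overlapping groups. The edgeR adjusted p was 0.995 for Sypl with haloperidol and 0.998 for Pacsin1 with olanzapine, each against placebo.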

How the data were processed

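Per the labels' protocols, striatum was sliced and triturated, dead cells were removed and cells were barcoded on a 10x Genomics Chromium Controller. The tools named per the submitters' processing notes are Cell Ranger and Seurat, on build mm10, with versions not given in the sources used here. The authors deposited UMI counts per gene and cell, with the mouse, drug and class of each cell in the same table.

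Left out were 23 cells over 20% mitochondrial UMIs, the 211 shared cells of placebo mouse 5 and 82 doublets (1.53%) called within each mouse by Scrublet in scanpy 1.11.5. Of these, 38 came from olanzapine mouse 2 (29.7% of its cells) and 9 from olanzapine mouse 1 (11.4%), against 0% to 2.15% in the other mice. Classes with under 10 cells of a mouse left that mouse out, and a comparison needed 3 mice in both groups. Summed counts of the 3 groups entered 1 fit per class in edgeR 4.0.16 (R 4.3.3; filterByExpr, TMM, robust quasi-likelihood F test, two-sided, adjusted p of 0.05), with DESeq2 1.42.0 as an alternative. Neurons were clustered with leidenalg 0.10.2 (2000 variable genes, 30 components, 15 neighbours, resolution 1). Log2 ratios between classes used a prior count of 2. Each SE of an edgeR log2 fold change was derived, as its absolute value divided by the square root of F. Such an SE is unreliable for an estimate very close to 0. The tests were checked on simulated data, where the interaction test had little power. Gene coordinates are from GENCODE on mm10, and Syt1, Syn2 and Sv2c overlap another gene on their strand, so their counts may be split.

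The members and lists were chosen with earlier results of these data known. Values by mouse are given for the 4 members with the smallest p for each drug in neurons and in neuroblasts and the 2 between the drugs. The others given in detail are the 5 highest in neurons, the 3 highest and 3 lowest in the neuron to neuroblast ratio, the member highest relative to neurons in each other class, the 5 with the widest ratio between kinds of neuron, and the 2 other vesicle cycle genes with the smallest p for each drug. Of those other genes, 1 is not reported here. Further examples were chosen after their values were seen.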

Additional observations from a re-analysis of the deposited data

Results flagged for a closer look

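Mice far from the rest of their group were looked for in 57 groups of 4 or 5 mice, and 5 values were found. A rate of about 1 in 20 would hold for independent normal values. These groups share mice and members, so the count cannot be read as an excess. In neurons, placebo mouse 4 stood above the other placebo mice for Cplx1 (235.555 CPM), Syn1 (109.561 CPM) and the summed share of the members (0.966385% of UMIs). Its interneuron-like share, 20.5% of neurons, was also the highest among placebo mice. Olanzapine mouse 1 stood above the other olanzapine mice for Dnm1 in neurons (291.915 CPM), on 15 UMIs. In neuroblasts, olanzapine mouse 5 stood above the other olanzapine mice for Syt1 (169.883 CPM), on 18 UMIs. The part of neuron makeup or depth in these values was not tested.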

How the results depend on the processing

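No paired analysis was possible because the mouse numbers in the labels are unique across groups. The count of called members stayed at 0 in each drug comparison under DESeq2, RLE factors, no filter on low counts, doublets kept, at least 20 cells per mouse, adjustment over all classes together, all cells summed, haloperidol mice 1 and 2 and olanzapine mice 1 and 2 left out together and each mouse left out in turn. It also stayed at 0 under alternatives chosen after seeing the data, which kept the shared cells in placebo mouse 5 or left out placebo mice 2 and 3. For haloperidol against placebo the median log2 fold change of members in neurons was 0.24. Without haloperidol mouse 5 it was 0.107, without placebo mouse 5 it was 0.107, and leaving out each mouse in turn gave 0.107 to 0.342. The cause was not tested. For olanzapine against placebo that range was -0.00072 to 0.182. With doublets kept, 3, 3 and 2 of 26 members in neurons had an unadjusted p under 0.05 (against 3.18%, 7.18% and 3.4% of genes), where 1 had it in each comparison without them. The median log2 ratio of neurons to neuroblasts ranged from 2.33 to 2.57. Over all genes and classes, calls numbered 1, 0 and 0 (haloperidol against placebo, olanzapine against placebo, haloperidol against olanzapine), 7, 46 and 4 with no filter on low counts, and 2, 5 and 0 with DESeq2. Depth limits the tests: 6 members were too low to test in neurons.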
